A study of Mus musculus with 7 samples.

Results

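The 10 genes described here build the classical route by which a cell displays internal peptides on MHC class I: the light chain gene B2m, the heavy chain genes H2-K1, H2-D1, H2-Q4, H2-Q7 and H2-T23, the transporter genes Tap1 and Tap2, the tapasin gene Tapbp and the transactivator gene Nlrc5. They were picked by symbol from the 50686 genes listed for every library, not by their values, and all 10 had enough counts to enter the test between ages. Transcripts were sequenced from microglia, the resident macrophages of the brain, of male C57BL/6 mice 4 days after a 45 min occlusion of the middle cerebral artery. The Young group held 4 mice of 3 to 4 months (libraries 14C, 18C, 23C and 29C) and the Old group 3 mice of 21 to 22 months (libraries 2posI, 3posI and 4posI), with 1 mouse per library. All 7 mice had ischemia and the groups differed in no labelled treatment, so the comparison concerns age within ischemia only. Cells were sorted from the forebrain with antibodies to CD11b and CD45 as the Bodipy+ fraction, Bodipy being a dye for neutral lipid, so that microglia with little lipid were not part of either group. The question was whether microglia of old ischemic males differ in their transcripts from those of young ones.

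A class I molecule at the cell surface consists of a heavy chain, the small invariant chain beta-2 microglobulin and a short peptide. Peptides cut by the proteasome are pumped into the endoplasmic reticulum by the TAP transporter, a pair of the Tap1 and Tap2 proteins, and tapasin holds the empty class I molecule at the transporter until a peptide fits. Cytotoxic T cells read the complex. Interferons are well known to raise these genes in microglia, through a shared promoter stretch bound by NF-kB and interferon regulatory factors and, further downstream, by the RFX, CREB/ATF and NF-Y proteins with which NLRC5 acts.

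That shared stretch is shown for 4 members whose genes carry it in different forms. B2m lies on chromosome 2 (122147686-122153083, GRCm38, plus strand) and Nlrc5 on chromosome 8 (94434356-94527272, plus strand), whereas the other 8 members lie on chromosome 17 between Tapbp (33915899-33929292) and H2-T23 (36029773-36032855). The sequences below are the 250 bases before the RefSeq start of each gene on its own strand (GRCm38.p6), for B2m chr2:122147437-122147686 (plus), for H2-K1 chr17:34000348-34000597 (minus), for H2-Q4 chr17:35379367-35379616 (plus) and for H2-Q7 chr17:35438905-35439154 (plus). Capitals mark 4 motifs searched on both strands: a kB element (GGGGATT and CC with any base between them), the core of an interferon-stimulated response element (AANNGAAA), an X2 or CREB/ATF core (TGACG) and a Y or inverted CCAAT box (ATTGG).
B2m: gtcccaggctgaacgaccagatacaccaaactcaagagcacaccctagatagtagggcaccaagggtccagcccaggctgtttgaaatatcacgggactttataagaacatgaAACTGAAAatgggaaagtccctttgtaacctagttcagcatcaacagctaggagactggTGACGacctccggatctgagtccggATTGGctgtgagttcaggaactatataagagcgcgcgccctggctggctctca
H2-K1: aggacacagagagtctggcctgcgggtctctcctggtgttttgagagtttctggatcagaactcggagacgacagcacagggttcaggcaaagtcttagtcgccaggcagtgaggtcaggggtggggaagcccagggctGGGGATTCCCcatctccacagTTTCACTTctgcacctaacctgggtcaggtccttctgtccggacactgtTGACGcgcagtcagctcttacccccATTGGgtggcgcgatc
H2-Q4: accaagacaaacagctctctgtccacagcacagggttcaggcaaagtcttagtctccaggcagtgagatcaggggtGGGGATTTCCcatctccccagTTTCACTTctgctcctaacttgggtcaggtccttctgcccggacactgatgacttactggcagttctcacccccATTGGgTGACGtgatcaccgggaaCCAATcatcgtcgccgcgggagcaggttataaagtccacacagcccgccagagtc
H2-Q7: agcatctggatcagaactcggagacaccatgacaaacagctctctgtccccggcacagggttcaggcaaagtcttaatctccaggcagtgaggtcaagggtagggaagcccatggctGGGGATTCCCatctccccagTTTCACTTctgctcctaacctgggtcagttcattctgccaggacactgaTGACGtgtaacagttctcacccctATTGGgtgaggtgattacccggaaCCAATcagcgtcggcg

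RefSeq gave a window for 8 of the 10 members; Tap2 and Nlrc5 had none here. The letters of all 4 motifs occurred in the windows of H2-K1, H2-D1, H2-Q4 and H2-Q7, and these were the 4 windows among 27025 mouse promoters of the same length (0.0148%) that held all of them. In H2-K1, H2-D1 and H2-Q7 the X2 letters stood before the Y letters. In H2-Q4 they stood at -73 to -69, after the first Y letters at -79 to -75. The X2 letters marked in H2-Q4 are thus not at the place they take in the shared stretch of those genes. Singly, the kB letters were present in 0.241% of all promoters, the response element core in 21.6%, the X2 letters in 17.9% and the Y letters in 34.5%. In the H2-D1 window the kB letters GGGGATTCCC stood at -171 to -162 from the start and the response element TTTCACTT at -150 to -143. H2-T23, the member with the lowest p between the ages, carried 2 response element cores, TTTCTCTT at -124 to -117 and TTTCTGTT at -81 to -74, and a CCAAT box at -52 to -48, with neither kB nor X2 letters in this window. In GENCODE, all 250 bases of the H2-D1 window and 154 bases of the H2-T23 window lie in exons of the same gene, all 250 of the Tap1 window in exons of Psmb9, all 250 of the H2-Q4 window in exons of Gm11131, and 146 of the Tapbp window in its own exons. B2m held 3 of the motifs in the order response element, X2 and Y, Tap1 held X2 and Y, and Tapbp held the Y letters alone, in 2 places. The motifs were chosen after these sequences had been seen, so that their presence describes the windows and was not tested.

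The libraries held 36574083 to 53002386 expected counts, the read estimates of the program RSEM. Microglial markers were abundant in every library, with a summed level of 21846 to 32406 CPM (counts scaled to a common library size) over 10 genes in the young libraries and of 25363, 11447 and 23482 CPM in 2posI, 3posI and 4posI. Library 3posI stood apart from the other 6: its 6 monocyte markers summed to 1931 CPM, against 70.1 and 107 CPM in the other old libraries and 23.2 to 92.7 CPM in the young ones, and its 6 neutrophil markers to 163 CPM against 14.4 to 108 CPM in the rest. Some blood cell markers stood higher in all 3 old libraries than in any young one. The monocyte gene Ly6c2 was at 0.936 to 2.85 CPM in young and at 15.3, 162 and 9.59 CPM in 2posI, 3posI and 4posI. In 3 of the 6 monocyte genes every old library was above every young one, beside 8.70% of all genes. Ly6c1 went the other way, with every old library below every young one, and Ccr2 and Chil3 overlapped. The 6 dendritic cell markers summed to 19.9 to 32.7 CPM in young and 52.5 to 59.0 CPM in old libraries, without overlap. Most of this sum was Itgax, at 15.9 to 27.8 CPM in young and 43.7 to 47.1 CPM in old libraries. The sum thus mainly follows Itgax, and which cells its transcripts came from was not tested. In 2 of the 6 dendritic cell genes every old library was above every young one, beside the same 8.70% of all genes. Zbtb46 and Xcr1 had negative log2 fold changes (-0.81 and -0.48). The 10 T cell markers summed to 1.48 to 10.8 CPM in young and 5.89 to 12.1 CPM in old libraries. Of these 10 genes 9 had an unadjusted edgeR p below 0.05, all higher in old mice, beside 10.1% of all genes in this direction. In 5 every old library was above every young one, beside 8.70% of all genes. The list median was 4.33 on the log2 scale. Cd4, at 1.23 to 10.3 CPM, overlapped between the ages and made up 10.2 of the 10.8 CPM in 23C. No other gene of this list exceeded 1.01 CPM in any library, so these differences rest on few reads. Cd8a, the coreceptor of the T cells that read class I, was at 0 in 3 young libraries and 0.0196 CPM in 23C, and at 0.284, 0.256 and 0.518 CPM in the old ones. Border-associated macrophage markers summed to 52.5 to 289 CPM in young and 82.5 to 766 CPM in old libraries. Blood leukocytes also carry class I transcripts. The part of these cells in the values below was not tested, and the members' differences between ages are therefore also given without 3posI. In sorted bulk cells, fewer cells of a type and less RNA per cell cannot be told apart.

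None of the 10 members passed the test between ages, with edgeR's quasi-likelihood test on counts over 17559 genes and an adjusted p below 0.05 as the threshold, a threshold that 0.803% of all genes passed. At an unadjusted p below 0.05 there were 2 members, H2-D1 and H2-T23, both higher in old mice, where 18.9% of all genes passed in either direction and 10.1% in this one. DESeq2 called 1 member, H2-T23, in a fit that called 7.97% of all genes (4.24% higher in old mice), and limma-voom, which called 0.814% of all genes, called none. The members are described here in 2 sets, cut by the size of this same difference, so that the sets themselves were not tested. In 5 of them (B2m, H2-D1, H2-Q7, H2-T23 and Nlrc5) the log2 fold change of old over young lay between 0.30 and 0.58, and it stayed above 0 under 11 other ways of fitting and when any 1 of the 7 libraries was left out. In the other 5 (H2-K1, H2-Q4, Tap1, Tap2 and Tapbp) it lay between -0.04 and 0.04 and its sign turned with the fit or the libraries used. The median log2 fold change over the 10 members was 0.17, beside -0.01 over all genes tested, and 0.08 without 3posI. It was also 0.03 without the young library 23C and 0.37 without the young library 29C, so that single young libraries moved it as much.

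**Figure D1:**
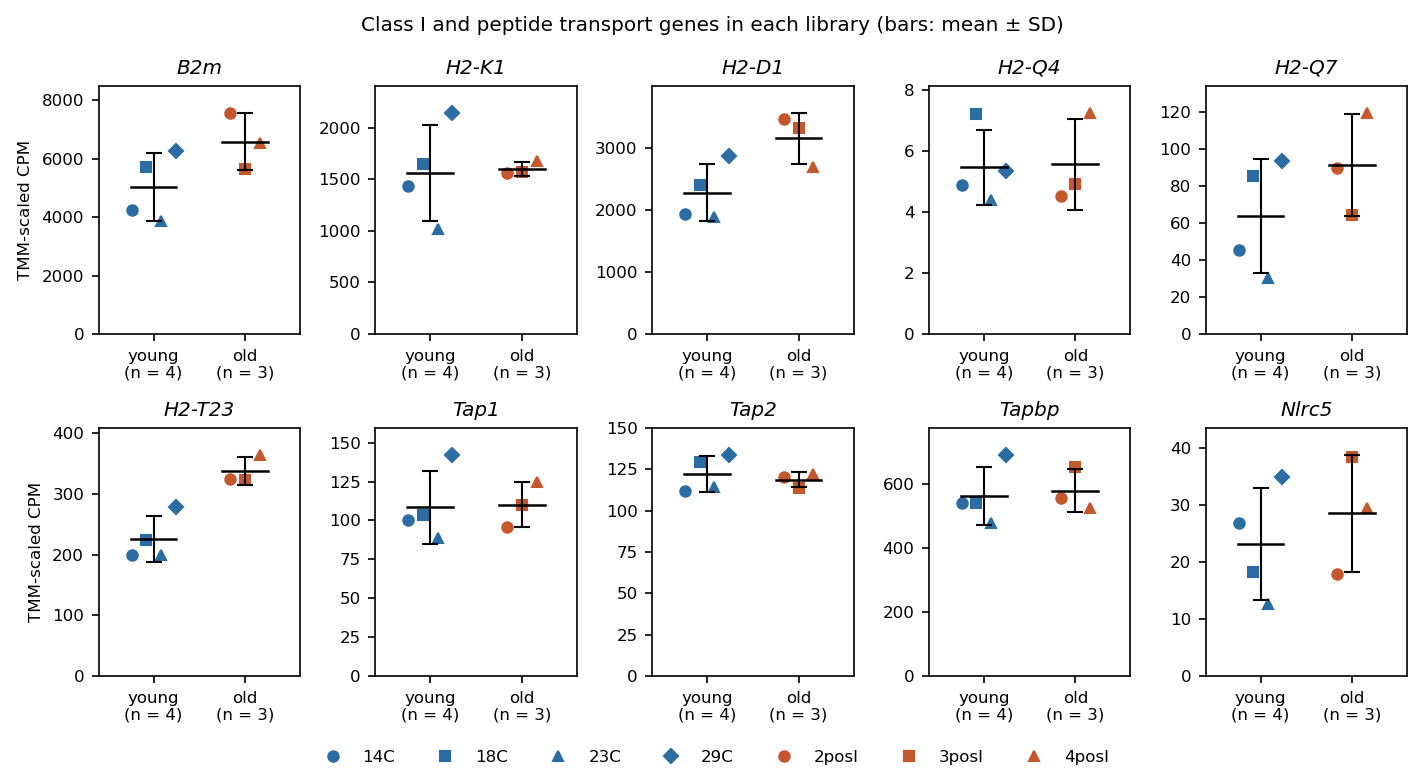
Level of each of the 10 genes in each library, in TMM-scaled CPM on a linear axis from 0; young libraries are blue, old ones orange, and black bars give the mean and SD. H2-T23 is the panel in which all 3 old libraries (322.8 to 364.7 CPM) stand above all 4 young ones (198.8 to 278.5 CPM); the ages overlap in the other 9.

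H2-T23 encodes Qa-1, a nonclassical heavy chain that shows a leader peptide of other class I chains to the inhibitory CD94/NKG2A receptor of natural killer and T cells. It measured 199.6, 224.8, 198.8 and 278.5 CPM in the young libraries 14C, 18C, 23C and 29C and 325.1, 322.8 and 364.7 CPM in the old libraries 2posI, 3posI and 4posI. Every old library was above every young one, a pattern that 8.70% of all genes showed in this direction, and the order held for TPM, a scale corrected for transcript length, with 193.6 to 252.9 in young and 276.9 to 361.3 in old. The means were 225 ± 37.4 CPM (SD, n = 4) and 338 ± 23.6 CPM (SD, n = 3). The log2 fold change was 0.58 ± 0.15 (SE), a 1.5-fold difference with a 95% interval of 0.24 to 0.93 on the log2 scale, and the edgeR adjusted p was 0.109. DESeq2 gave 0.59 with an adjusted p of 0.00956. Without 3posI the difference was 0.61 (edgeR adjusted p = 0.128), and over all 7 omissions of 1 library it stayed between 0.52 and 0.70 with edgeR adjusted p-values of 0.11 to 0.277.

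B2m, whose product pairs with every class I heavy chain of this family, was the most abundant member by far. It measured 4230, 5728, 3857 and 6259 CPM in 14C, 18C, 23C and 29C and 7573, 5638 and 6522 CPM in 2posI, 3posI and 4posI. Old libraries 2posI and 4posI were above all young ones, while 3posI lay among them. The log2 fold change was 0.39 ± 0.23 (SE; 95% interval -0.14 to 0.92; edgeR adjusted p = 0.395) and 0.49 without 3posI.

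H2-D1 and H2-K1 encode the classical heavy chains H-2D and H-2K that present peptides to CD8 T cells. H2-D1 measured 1939, 2409, 1880 and 2865 CPM in young and 3466, 3317 and 2692 CPM in old libraries, so that 29C was above 4posI and the ages overlapped. In TPM they did not overlap, with 1397 to 1985 in young and 2047 to 2236 in old, the highest young and the lowest old library lying close together. The log2 fold change was 0.47 ± 0.20 (SE; 95% interval 0.01 to 0.94), with an edgeR adjusted p of 0.254, and 0.44 without 3posI. H2-K1, in contrast, measured 1431, 1651, 1022 and 2148 CPM in young and 1563, 1568 and 1682 CPM in old libraries. The 3 old values lay inside the range of the young ones and close to each other, with an SD of 67.4 CPM against 468.8 CPM in young. Its log2 fold change was 0.04 ± 0.24 (SE; 95% interval -0.51 to 0.58; edgeR adjusted p = 0.949), an interval that leaves room for a difference of the size seen in H2-D1, and it ran from -0.12 without 23C to 0.23 without 29C, with 0.05 without 3posI.

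H2-Q7 encodes Qa-2, a nonclassical chain anchored to the membrane by a lipid, and H2-Q4 a less studied relative, Qb-1. H2-Q7 was the most variable member among young mice, at 45.5, 85.4, 30.2 and 93.7 CPM in 14C, 18C, 23C and 29C, and it measured 89.7, 64.5 and 119.7 CPM in 2posI, 3posI and 4posI. The young libraries thus spanned a range that reached the middle of the old ones, and the log2 fold change of 0.52 ± 0.38 (SE; 95% interval -0.35 to 1.39; edgeR adjusted p = 0.493) was smaller than the young range of 1.63. Without 3posI it was 0.72. Of the 50-base stretches in H2-Q7 transcripts, 26.5% were shared with other genes, so that its counts depend on how the reads were divided. Among them were 14.0% with H2-Q10, 8.74% with H2-Q5 and 6.31% with H2-Q6. With H2-Q6 and H2-Q7 added together the difference was 0.57, and with H2-Q7 and H2-Q10 added together it was 0.17 (edgeR adjusted p = 0.839). Both sums were chosen after the data were seen, and H2-Q5 was in neither. H2-Q4 was scarce, at 4.89, 7.24, 4.405 and 5.35 CPM in young and 4.53, 4.91 and 7.27 CPM in old libraries, which was 152 to 337 expected counts. With 36.4% of its stretches shared with other genes and a log2 fold change of 0.03 ± 0.26 (SE; 95% interval -0.56 to 0.61), no direction could be given for it (0.11 without 3posI).

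Neither subunit of the peptide transporter passed the test between ages. Tap1 measured 100.1, 103.5, 88.4 and 142.3 CPM in young and 95.7, 110.2 and 124.5 CPM in old libraries, and its log2 fold change was 0.02 ± 0.18 (SE; 95% interval -0.39 to 0.43; edgeR adjusted p = 0.964), and again 0.02 without 3posI. Tap2 measured 112.0, 129.3, 114.2 and 134.0 CPM in young and 120.6, 113.7 and 122.2 CPM in old libraries, the least variable member in either age. Its log2 fold change of -0.04 ± 0.11 (SE) had the narrowest 95% interval of the 10, from -0.30 to 0.22, which leaves out differences of the size estimated for H2-D1 and H2-T23, and it was -0.01 without 3posI. The scale mattered for Tap2: in TPM it was 81.32 to 91.44 in young and 63.85 to 81.30 in old libraries, so that 4posI and 14C all but touched, and the log2 fold change on log2(TPM + 1) was -0.26 with a limma adjusted p of 0.258. Tapbp, the tapasin gene, measured 540.1, 541.9, 480.0 and 692.6 CPM in young and 556.9, 654.7 and 526.7 CPM in old libraries. All 3 old values lay within the young range, and the log2 fold change was 0.04 ± 0.17 (SE; 95% interval -0.34 to 0.42; edgeR adjusted p = 0.919) and -0.06 without 3posI.

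Nlrc5, the transactivator, varied among mice of either age. It measured 26.9, 18.3, 12.6 and 34.9 CPM in 14C, 18C, 23C and 29C and 17.8, 38.4 and 29.5 CPM in 2posI, 3posI and 4posI. The highest library was 3posI, and the lowest old library was below 3 of the 4 young ones. The log2 fold change of 0.30 ± 0.36 (SE; 95% interval -0.52 to 1.13; edgeR adjusted p = 0.689) was 0.03 when 3posI was left out and 0.55 when 2posI was.

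**Figure D2:**
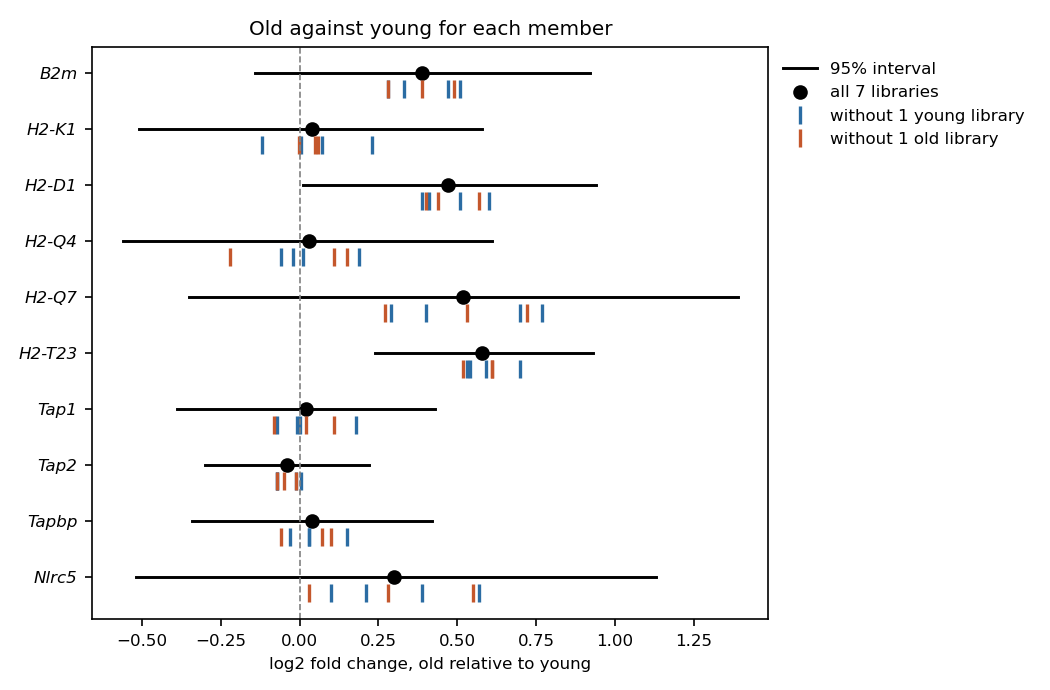
Log2 fold change of old over young for each member, with its 95% interval (black), and below it the value with 1 young (blue) or 1 old (orange) library left out. The intervals of H2-D1 (0.01 to 0.94) and H2-T23 (0.24 to 0.93) lie above 0, before any adjustment for the number of genes tested; the other 8 include 0.

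Read per length, the members covered a wide range of levels. In young libraries the mean TPM was 8563 for B2m, 1678 for H2-D1, 1519 for H2-K1, 313 for Tapbp, 216 for H2-T23, 85.3 for Tap2, 54.0 for Tap1, 46.3 for H2-Q7, 15.5 for Nlrc5 and 3.06 for H2-Q4. In old libraries the order differed in 2 places of near neighbours, H2-T23 (308 TPM) standing above Tapbp (299 TPM) and H2-Q7 (73.4 TPM) above Tap2 (71.6 TPM) and Tap1 (55.5 TPM), and in these cases the values of the old libraries overlapped. H2-D1 and H2-K1 overlapped in young libraries and did not in old ones, where H2-D1 was at 2047 to 2236 TPM and H2-K1 at 1272 to 1617 TPM. Together the 10 members made up 0.974% to 1.49% of all TPM in young and 1.31% to 1.61% in old libraries. B2m TPM per summed heavy chain TPM overlapped between the ages, at 2.35 ± 0.144 in the young group (SD, n = 4) and 2.53 ± 0.311 for the old (SD, n = 3). Tap2 TPM exceeded Tap1 TPM in all 7 libraries, by a factor of 1.25 to 1.88 in young and 1.23 to 1.44 in old.

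The make-up of the heavy chain transcripts was compared as shares of their summed TPM, a measure within a library that does not depend on scaling between libraries. The share of H2-K1 was 43.3%, 41.4%, 36.1% and 43.6% in 14C, 18C, 23C and 29C and 31.1%, 32.5% and 36.6% in 2posI, 3posI and 4posI, with 4posI just above 23C. The share of H2-D1 was 44.5%, 45.8%, 51.0% and 43.8% in young and 54.7%, 54.7% and 46.4% in old libraries. H2-D1 and H2-K1 were thus near parity in 3 of the 4 young libraries, with 1.00 to 1.10 H2-D1 TPM per H2-K1 TPM, against 1.41 in 23C and 1.76, 1.68 and 1.27 in the old libraries. The mean share was 7.68 percentage points lower in old mice for H2-K1 (exact permutation test, two-sided p = 0.0857, adjusted over 6 shares 0.286), 5.64 points higher for H2-D1 (exact p = 0.143, adjusted 0.286) and 1.33 points higher for H2-T23 (exact p = 0.114, adjusted 0.286). The shares of H2-Q7 (1.2% in young and 1.74% in old), H2-Q4 (0.085% and 0.0708%) and all other heavy chain genes together (5.33% and 5.52%) had exact p-values of 0.2 to 0.771. No share passed the test. The smallest exact p with 3 and 4 libraries is 0.0286, which for a single share becomes 0.171 after adjustment over 6. Without 3posI the difference was -7.21 points for H2-K1, 4.27 for H2-D1 and 1.46 for H2-T23 (exact test, adjusted p = 0.267, 0.32 and 0.30). Because 9.63% of the 50-base stretches of H2-K1, 12.8% of those of H2-D1 and 14.5% of those of H2-T23 also occur in other genes, the shares rest in part on the division of reads among relatives.

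**Figure D3:**
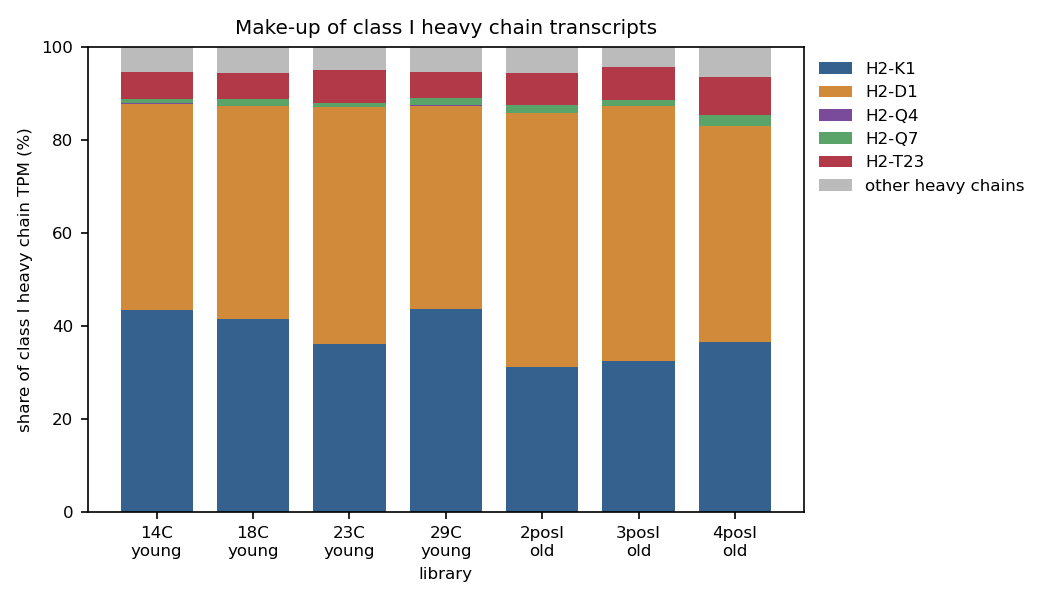
Share of each class I heavy chain gene in the summed heavy chain TPM of a library, in percent; each bar is 1 library and the grey part holds all other heavy chain genes. H2-K1 and H2-D1 together fill most of every bar, and the H2-K1 part runs from 36.1% to 43.6% in young and from 31.1% to 36.6% in old libraries.

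The young mice differed among themselves in the same way for most members. In 9 of the 10 genes library 23C was the lowest of the 4 young libraries, as in 31.2% of all genes tested. In 9 of them 29C was the highest, as in 23.1% of all genes, and 8 genes showed both, a combination seen in 8.95% of all genes tested. The exceptions were Tap2, lowest in 14C, and H2-Q4, highest in 18C. Averaged over the 10 members, the log2 CPM centred on each gene's mean was -0.50 in 23C, -0.22 in 14C, 0.01 in 18C and 0.27 in 29C, and 0.07, 0.13 and 0.25 in the old libraries 2posI, 3posI and 4posI. The span among young libraries was wider than that among old ones, and 29C stood as high as any old library. Library 23C also had the lowest summed microglial markers of the young libraries, at 21846 CPM, with P2ry12 at 441 CPM against 1147 to 1767 CPM in the other 3. The part of this in the members' levels was not tested.

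**Figure D4:**
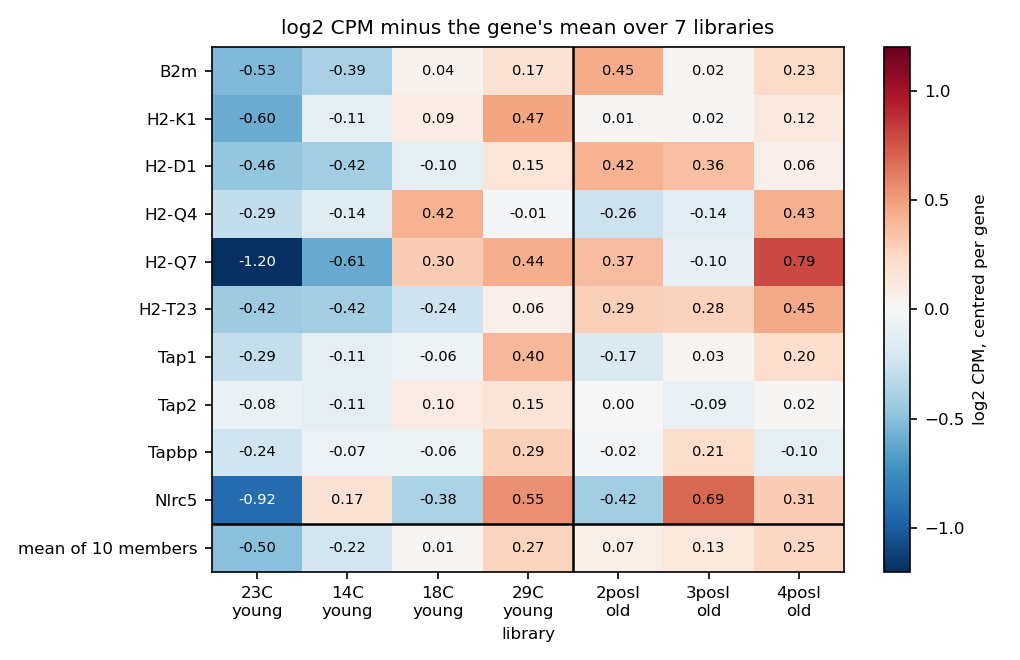
Log2 CPM of each member minus its own mean over the 7 libraries, with young libraries ordered by the mean of the 10 members (bottom row) and old libraries to the right; blue is below and red above the gene's mean. The column of 23C is blue throughout, from -0.08 for Tap2 to -1.195 for H2-Q7, and the bottom row runs from -0.50 in 23C to 0.27 in 29C.

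Within the set, B2m and H2-D1 had the most alike profiles, with a mean absolute difference of 0.114 on the log2 scale over 7 libraries, followed by H2-K1 and Tap1 at 0.118 and by Tap1 and Tapbp at 0.120. H2-Q7 and Nlrc5 were the least alike at 0.560. Tap1 and its neighbour Psmb9 share a short promoter region and lie head to head, yet the Psmb9 log2 fold change was 0.55 (edgeR adjusted p = 0.155) beside 0.02 for Tap1. Among 8136 genes outside the set with a mean of at least 10 CPM, those nearest to the members' mean profile were Kmt2d (0.064), Naip2 (0.064), Traf3 (0.066), Arid2 (0.074) and Birc6 (0.086), where the median gene was at 0.282. Kmt2d encodes a histone methyltransferase, Naip2 a sensor of bacterial secretion systems and Traf3 an adaptor of receptor signalling. Their own log2 fold changes were 0.13 to 0.37, with edgeR adjusted p-values of 0.284 to 0.733.

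The genes that act before and after the members were read in 11 further lists holding 106 genes, of which 81 were tested. None passed the edgeR threshold (0.803% of all genes did); at an unadjusted p below 0.05 there were 19 higher and 5 lower in old mice, beside 10.1% and 8.79% of all genes. DESeq2 called 19 of them, 14 higher and 5 lower, in the fit that called 7.97% of all genes, and limma-voom none. The immunoproteasome replaces the standard catalytic subunits and cuts peptides suited to class I. In the list of its genes and of its PA28 activator, 6 of 7 genes had an unadjusted p below 0.05, all higher in old mice. The list median was 0.55. Psme2, a PA28 subunit, measured 123.3, 113.5, 129.5 and 176.1 CPM in young and 236.1, 237.3 and 180.2 CPM in old libraries, and its log2 fold change was 0.68 ± 0.18 (SE; edgeR adjusted p = 0.112). Psmb8, a catalytic subunit, measured 205.8, 209.1, 199.2 and 287.2 CPM in young and 385.3, 343.6 and 301.3 CPM in old libraries, with a log2 fold change of 0.61 ± 0.17 (SE; edgeR adjusted p = 0.123). In CPM the ages did not overlap in either gene, a pattern of 8.70% of all genes in this direction, and 29C was again the highest young library. In TPM they overlapped in Psme2, where 29C (407 TPM) was above 4posI (388 TPM). The 3 constitutive catalytic subunits had a list median of 0.37, with Psmb7 at 0.37 ± 0.13 (SE; edgeR adjusted p = 0.171) and Psmb5 at 0.38 ± 0.19 (SE; edgeR adjusted p = 0.318).

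Other class I heavy chain genes had a list median of 0.50 over 11 tested genes of 27, among which H2-T22, a ligand of some gamma-delta T cells, measured 33.6, 39.6, 34.5 and 67.9 CPM in young and 78.7, 74.1 and 68.1 CPM in old libraries. Its lowest old value and its highest young value were almost equal, and its log2 fold change was 0.75 ± 0.24 (SE; edgeR adjusted p = 0.163). Its close relative H2-T10, at 1.33 to 3.00 CPM in young and 4.01 to 6.23 CPM in old libraries, had a log2 fold change of 1.16 ± 0.31 (SE; edgeR adjusted p = 0.114). Of the 11 genes, 2 had negative values, both chosen for mention after their values were seen. H2-Q10, which shares stretches with H2-Q7, measured 33.2, 32.4, 9.45 and 27.7 CPM in young and 8.05, 4.35 and 15.5 CPM in old libraries (log2 fold change -1.46 ± 0.52, SE; edgeR adjusted p = 0.183) and was among the DESeq2 calls. H2-K2 was at -0.82 ± 0.38 (SE; edgeR adjusted p = 0.292). Loading factors of the endoplasmic reticulum had a median of 0.14 over 8 genes, and class I-like molecules a median of 0.14 over 9. Tapbpl, a peptide editor related to tapasin, was at 0.27 ± 0.16 (SE) and Ganab, a glucosidase subunit, at 0.19 ± 0.12 (SE). Among the class I-like molecules the NKG2D ligand Ulbp1 was at -0.57 ± 0.31 (SE) and Mr1, which presents microbial vitamin metabolites, at -0.23 ± 0.13 (SE); no edgeR adjusted p of these 4 was below 0.354. Cytosolic peptidases had a median of -0.04 over 6 genes, with the oligopeptidase Thop1 at -0.34 ± 0.19 (SE; edgeR adjusted p = 0.356) and the aminopeptidase Npepps at 0.49 ± 0.12 (SE; edgeR adjusted p = 0.0968). Npepps did not overlap between ages in CPM but did in TPM (20.1 to 28.1 in young and 25.5 to 31.4 in old), and its log2 fold change was 0.23 on log2(TPM + 1) and 0.33 with an effective-length offset.

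Upstream regulators gave values on both sides of 0. Of the proteins that bind class I promoters with NLRC5, with a list median of 0.04 over 8 genes, Rfx5 measured 19.9, 21.5, 19.3 and 21.4 CPM in young and 15.7, 10.24 and 14.8 CPM in old libraries, all old values being below all young ones, as in 9.06% of all genes. Its log2 fold change was -0.59 ± 0.17 (SE; edgeR adjusted p = 0.13), and Atf1 was at 0.16 ± 0.13 (SE; edgeR adjusted p = 0.536). Interferon regulatory and NF-kB factors had a median of -0.13 over 9 genes, with the NF-kB subunits Rela at -0.49 ± 0.12 (SE; edgeR adjusted p = 0.0886) and Relb at -0.59 ± 0.15 (SE; edgeR adjusted p = 0.0979). Interferon receptors and their kinases had a median of -0.05 over 8 genes. Tyk2, a kinase of the type I interferon receptor, measured 53.9, 60.5, 55.6 and 53.1 CPM in young and 28.01, 39.6 and 34.98 CPM in old libraries (log2 fold change -0.71 ± 0.14, SE; edgeR adjusted p = 0.0591), and without 3posI the value was -0.82 with an edgeR adjusted p of 0.0447. Jak2, a kinase of the interferon gamma receptor, measured 16.8, 13.2, 13.4 and 17.4 CPM in young and 25.2, 31.7 and 21.6 CPM in old libraries (log2 fold change 0.79 ± 0.18, SE; edgeR adjusted p = 0.0801).

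**Figure D5:**
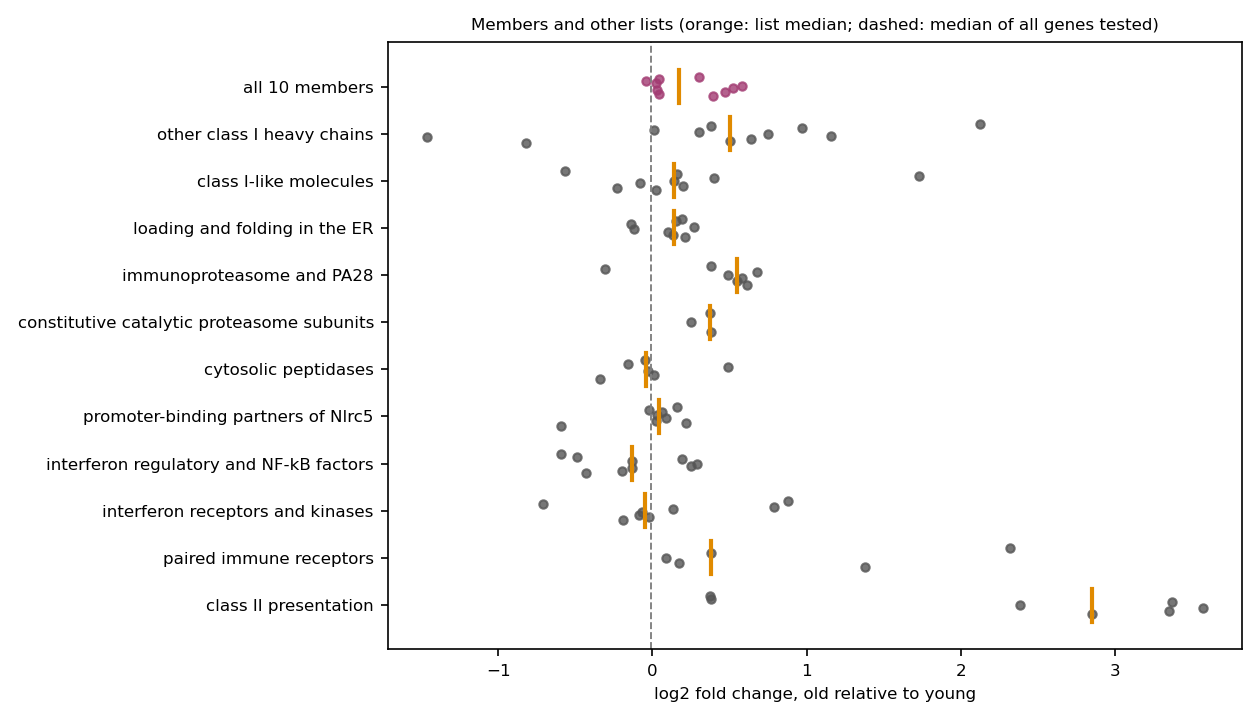
Log2 fold change of old over young for the 10 members (purple) and for every tested gene of 11 further lists (grey), with each list's median in orange and the median of all genes tested as a dashed line. The members' median is 0.17, that of the immunoproteasome list 0.55 and that of class II presentation 2.85.

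Class II presentation, the route for peptides from outside the cell, had a list median of 2.85 over 7 genes. H2-Ab1, H2-Aa, H2-Eb1, Cd74 and Ciita were at 2.38 to 3.57, and H2-DMa (0.38) and H2-DMb1 (0.37) were lower; the lists were not compared by a test. H2-Ab1, a class II chain, measured 64.0, 42.0, 33.8 and 30.4 CPM in young and 173.6, 621.9 and 127.8 CPM in old libraries, and its transactivator Ciita 0.368, 0.112, 0.333 and 0.129 CPM and 0.924, 5.19 and 1.27 CPM. Library 3posI, the one with the most monocyte marker transcripts, was the highest in both genes, and all old libraries were above all young ones. The log2 fold changes were 2.85 ± 0.53 (SE; edgeR adjusted p = 0.0536) for H2-Ab1 and 3.37 ± 0.72 (SE; edgeR adjusted p = 0.073) for Ciita, and without 3posI 1.82 (edgeR adjusted p = 0.0341) and 2.21 (edgeR adjusted p = 0.136). Among paired immune receptors, with a list median of 0.38 over 5 genes, Pirb, an inhibitory receptor of myeloid cells that binds class I, was at 1.38 ± 0.46 (SE; edgeR adjusted p = 0.167) with 222.3 CPM in 3posI and 32.9 to 73.4 CPM in the other 6 libraries, and Pilrb1, an activating receptor with other ligands, at 2.32 ± 0.74 (SE; edgeR adjusted p = 0.158) with 7.58 CPM in 3posI and 0.239 to 1.46 CPM elsewhere. Leaving out 3posI took them to 0.49 and 0.93.

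The libraries were made without regard to strand, so that reads from bases shared by a gene and an antisense partner cannot be told apart. Such partners overlap Tap1 (Psmb9), Tap2 (Gm15821 and Gm20496), Tapbp (Gm19412), H2-T23 (A930015D03Rik), H2-Q4 (Gm11131), B2m (Patl2) and Nlrc5 (9330175E14Rik). The annotated transcripts of H2-T23 and A930015D03Rik shared no 50-base stretch on either strand. H2-K1, H2-D1 and H2-Q7 had no annotated partner of this kind. B2m had whole counts in all 7 libraries, within a tolerance of 0.001, and shared no 50-base stretch with another gene, so its reads were not divided among genes.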

How the data were processed

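Polyadenylated RNA of sorted microglia was made into non-stranded SMARTseq2 libraries, 4 Young and 3 Old. According to the methods and the submitters' notes, the authors trimmed reads with skewer 0.2.2, checked them with FastQC 0.11.5, used STAR for alignment to GRCm38 and RSEM for quantification of GENCODE m15 genes. The deposited values are RSEM expected counts, which share reads among similar genes, with TPM and FPKM (not used here). Here expected counts were rounded, genes on autosomes with more than 10 counts in at least 1 library were kept (17559), and edgeR 4.0.16 (TMM factors, quasi-likelihood test, Benjamini-Hochberg adjustment over all 17559 genes) compared Old with Young; the study's own fit, limma-voom (limma 3.58.1), and DESeq2 1.42.0 were among the alternatives. Biological variation between mice was 37.2% (coefficient of variation). CPM are TMM-scaled. Intervals are 95% intervals of the fit. Shares of heavy chain TPM were compared with a two-sided exact permutation test over libraries. All 10 members are named, and from each further list any gene past the threshold and the 2 with the lowest p among those with a mean of at least 1 CPM, with H2-Ab1 and Ciita for class II. The other genes named, among them Psmb9, P2ry12 and single marker genes, were chosen after their values were seen. Members and lists were chosen with earlier results of these data known. Gene positions and transcript stretches come from GENCODE vM21, in which 224 of the 50686 identifiers were not found, and promoters from RefSeq. Scripts were tested on simulated data. The labels name no batch.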

Additional observations from a re-analysis of the deposited data

Results flagged for a closer look

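In 3 of 43 results checked, a single young library was distant from its group, judged by the ratio of its gap to the group's whole range (Dixon's test at 95%); about 2.15 such cases would arise by chance. None was a member. The ratio was 0.888 for Psmb8, where 29C (287.2 CPM) was above 199.2 to 209.1 CPM, 0.879 for Psmb5, where 23C (112.6 CPM) was above 83.4 to 87.0 CPM, and 0.845 for Thop1, where 23C (27.8 CPM) was above 19.4 to 20.7 CPM. Groups of 3, such as the old libraries, were not checked in this way.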

How the results depend on the processing

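The count of called genes differed between tests, which ran on 17559 genes, on 27354 with no low-count filter and on 17275 to 17401 with 1 library left out. It was 141 with edgeR, 318 with limma-voom and sample quality weights, 1399 with DESeq2, 213 with an effective-length offset, 288 with no low-count filter, 64 on log2(TPM + 1), 71 on log2(TPM + 0.1) and 637 at an adjusted p below 0.1. With 1 library left out it ran from 1 to 159: 1 without 14C, 18C or 2posI, 2 without 29C, 14 without 23C, 85 without 4posI and 159 without 3posI. The number of members called was 0 in all of these except DESeq2, which called 1. The members' median log2 fold change ran from 0.03 to 0.37 with 1 library left out and from 0.05 to 0.22 under the 11 other fits. Among the further lists, 19 genes were called with DESeq2, 6 with no low-count filter (Tyk2 and 5 class II genes, with adjusted p-values of 0.04 for Tyk2, 0.0148 for H2-Ab1 and 0.0376 for Ciita), Tyk2 with quality weights (0.032), H2-Ab1 with the effective-length offset (0.0453) and with edgeR's own filter (0.049), and 0 to 2 with 1 library left out (H2-Ab1 and Tyk2 without 3posI, H2-Ab1 without 4posI). The causes were not tested.

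Among the members, signs turned only for the 5 with values near 0. H2-K1 was -0.03 with the effective-length offset, -0.08 on both log2 TPM scales, -0.12 without 23C and -0.00094 without 4posI (highest 0.23, without 29C). H2-Q4 was -0.007 with upper-quartile factors, -0.04 on log2(TPM + 1), -0.05 on log2(TPM + 0.1), and between -0.22 and -0.02 without 14C, 23C or 4posI (-0.02, -0.06 and -0.22; highest 0.19, without 18C). Tap1 was -0.01 with upper-quartile factors, -0.0015 with no low-count filter, and -0.0091, -0.07 and -0.08 without 14C, 23C or 4posI (highest 0.18, without 29C). Tap2 was 0.0065 with quality weights and 0.0037 without 29C. Tapbp was -0.06 on both log2 TPM scales, -0.03 without 23C and -0.06 without 3posI (highest 0.15, without 29C). Traf3 was -0.06 with the effective-length offset, -0.15 on log2(TPM + 1) and -0.18 on log2(TPM + 0.1), and Atf1 -0.06 and -0.07 on the TPM scales. The log2(TPM + 0.1) scale also moved the median of all genes to -0.128. The difference in the share of other heavy chains was -0.268 points without 4posI, and between -0.268 and 0.716 points over the 7 omissions. The direction of the shares of the 5 heavy chain members was kept in every alternative run.

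No paired analysis was possible because the libraries' labels carry no number shared between the ages. The limits that remain are the spread between mice, the division of reads among similar heavy chain genes and the higher level of some blood cell markers in old libraries, above all of most monocyte markers in 3posI.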
